A study of Mus musculus with 40 samples.

Results

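The activin and BMP branch of the TGF-β superfamily was followed in mouse mammary tumors treated with antibodies against PD-L1 and with a TGF-β trap. The 10 genes were taken by symbol from the 39012 genes of the deposited tables. They are the ligand genes Inhba, Inhbb, Bmp2, Bmp4 and Gdf15, the receptor genes Acvr1, Acvr2a, Bmpr1a and Bmpr2, and Fst, which encodes the antagonist follistatin. All 10 passed the filter on low counts. The series holds 40 RNA-seq libraries of EMT-6 tumors, each from another mouse. EMT-6 is a mammary carcinoma line of Balb/C origin, grown here in the mammary pad of Balb/C females of 8 to 12 weeks and dosed once tumors had reached about 400 mm3, 20 days after inoculation.

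Each of 4 groups held 10 tumors, treated by intravenous injection on days 0, 1 and 2 and collected on day 6. The isotype group received 400 ug of an inactive isotype control of the PD-L1 antibody. The anti-PD-L1 group received 400 ug of the antibody. The bifunctional group received 492 ug of an anti-PD-L1 antibody fused to a TGF-β trap, named M7824 in the series title. The trap control group received 492 ug of the trap carried by an antibody labelled as mutated in its anti-PD-L1 part, so that the trap is present in both this group and the bifunctional group.

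TGF-β superfamily ligands are dimers that bring together type I and type II serine kinase receptors on the cell surface. TGF-β itself signals through TGF-β receptor II, the receptor whose outer part makes up the trap. Activins, BMPs and GDF15 use other receptors: activins bind ACVR2A and its relatives and pass the signal to SMAD2 and SMAD3, while BMPs bind BMPR2 or activin type II receptors with BMPR1A or ACVR1 and pass it to SMAD1, SMAD5 and SMAD9. Follistatin wraps around activins and blocks them, with a weaker hold on some BMPs. GDF15 is a distant relative induced by cell stress, whose receptor GFRAL is known from the hindbrain.

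All 10 are annotated as protein-coding genes (GENCODE M21, mm10). Of the ligand genes, Inhba (ENSMUSG00000041324) lies at chr13:16011851-16031621 on the plus strand, Inhbb (ENSMUSG00000037035) at chr1:119415465-119422248 on the minus strand, and Bmp2 (ENSMUSG00000027358) at chr2:133552159-133562885 on the plus strand. Bmp4 (ENSMUSG00000021835) lies at chr14:46383520-46390669 and Gdf15 (ENSMUSG00000038508) at chr8:70629393-70632456, both on the minus strand. Of the receptor genes, Acvr1 (ENSMUSG00000026836) lies at chr2:58388644-58567157 and Bmpr1a (ENSMUSG00000021796) at chr14:34410734-34503341, both on the minus strand. Acvr2a (ENSMUSG00000052155) lies at chr2:48814109-48903269 and Bmpr2 (ENSMUSG00000067336) at chr1:59763400-59879014, both on the plus strand. Fst (ENSMUSG00000021765) lies at chr13:114452290-114458951 on the minus strand.

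The libraries fell into 2 sets by their numbers, which were kept apart. Set 1, numbered C0449 to C0464, held the 10 isotype libraries and 6 of the trap control. Set 2, numbered C0465 to C0488, held the other 4 trap control libraries, the 10 anti-PD-L1 and the 10 bifunctional libraries. The labels name no batch. Within each set the library numbers follow the treatment, so that numbering and treatment cannot be told apart. Each library held 13495835 to 27658263 expected counts in all. Reads of 4 structural RNAs took 29.7 to 62.3% of the counts in set 1 and 11.7 to 18.0% in set 2, leaving 4893910 to 14807782 protein-coding counts in set 1 and 16239772 to 21388593 in set 2. In the 1 treatment present in both sets, the trap control, 8074 of 16174 genes (49.9%) differed between the sets at an adjusted p under 0.05 (edgeR). Of the 10 genes, 5 did: Inhba, Inhbb, Bmp2 and Acvr1 were higher in set 1 and Bmpr1a was lower. Acvr1 differed most firmly, by 1.40 on the log2 scale (SE 0.150, adjusted p 1.99e-09). Levels are therefore compared only within a set.

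The labelled tissue was checked against its markers. The keratin gene Krt8, a mark of the carcinoma, had a median of 269.99 CPM (TMM-scaled counts relative to library size, as with all CPM here) in the isotype tumors, 420.6 CPM in the anti-PD-L1 tumors and 335.3 CPM in the bifunctional tumors. Krt18 had medians of 20.5, 23.2 and 24.97 CPM in these groups. In the trap control the median of Krt8 was 266.7 CPM in set 1 and 451.2 CPM in set 2, so the isotype levels are not compared with those of set 2. The other 4 epithelial markers were low, with isotype medians between 1.43 CPM (Krt7) and 4.06 CPM (Cdh1), and Epcam, Krt19, Krt7 and Cdh1 had higher medians in the bifunctional than in the anti-PD-L1 tumors (8.46 against 3.03 CPM for Epcam). Markers of neighboring host tissue were uneven. The summed level of 9 skeletal muscle genes ran from 0.732 to 181.5 CPM in the anti-PD-L1 tumors and from 0.898 to 3392 CPM in the bifunctional tumors. That of 4 skin keratinocyte genes ran from 2.17 to 10.6 CPM and from 1.30 to 1805 CPM in the same groups, and that of 8 adipocyte genes from 30.4 to 155.0 CPM and from 23.0 to 1217 CPM. The bifunctional libraries C0479 (skin) and C0484 (muscle and fat) held the highest of these sums. The trap control tumors of set 2 were uneven too, with 1.49 to 293.1 CPM of muscle genes (median 31.4 CPM). Their adipocyte sum ran from 29.5 to 459.5 CPM. In set 1 the trap control library C0463 stood apart with 8864 CPM of muscle genes, against at most 101.1 CPM in the isotype tumors. The sum of 6 mammary ductal genes of the host had a median of 3.61 CPM in the anti-PD-L1 and 15.2 CPM in the bifunctional tumors, where it reached 106.0 CPM in C0484, with 2 of the 3 genes tested called higher. Prlr had the highest median of these genes, 1.84 and 13.8 CPM, and Csn2 was at 0 in every group. The calls of Bmp2 and Acvr2a between bifunctional and anti-PD-L1 tumors are given with and without C0479 and C0484. Several relations and marker counts of set 2 are given only with these libraries.

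Compared per length of transcript, in deposited TPM, the 10 genes spanned a wide range of levels. In the isotype tumors Inhba, the gene of the activin A subunit, had the highest median, 6.635 TPM, followed by Bmpr1a at 3.51, Bmpr2 at 3.265, Acvr1 at 3.225 and Fst at 3.06 TPM. Bmp4 had a median of 2.055 TPM and Inhbb, the activin B subunit, 1.91 TPM. Gdf15 at 0.665, Acvr2a at 0.505 and Bmp2 at 0.04 TPM closed the order. The ranges over the 10 isotype libraries overlapped for each pair of neighbors in this order except the last: Acvr2a ran from 0.34 to 0.83 TPM and Bmp2 from 0.02 to 0.08 TPM. In the anti-PD-L1 tumors the order began with Fst at 10.2 and Bmpr1a at 10.1 TPM, went on with Bmpr2 at 6.27, Inhba at 5.86, Bmp4 at 4.62, Inhbb at 4.43 and Acvr1 at 2.77 TPM, and ended with Gdf15 at 1.51, Acvr2a at 0.95 and Bmp2 at 0.095 TPM. There too only Acvr2a and Bmp2 had ranges that did not overlap, 0.71 to 1.38 against 0.05 to 0.22 TPM. Bmp2 was thus the scarcest of the 10 in both groups, and its expected counts ran from 7 to 179 per library over the whole series. The isotype and anti-PD-L1 tumors lie in different sets, so their 2 orders cannot be read as a treatment difference. In the trap control, Fst had medians of 4.175 TPM in set 1 and 11.135 TPM in set 2. Bmpr1a had 3.48 and 11.035 TPM there, and Inhba 7.105 and 6.26 TPM.

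**Figure D1:**
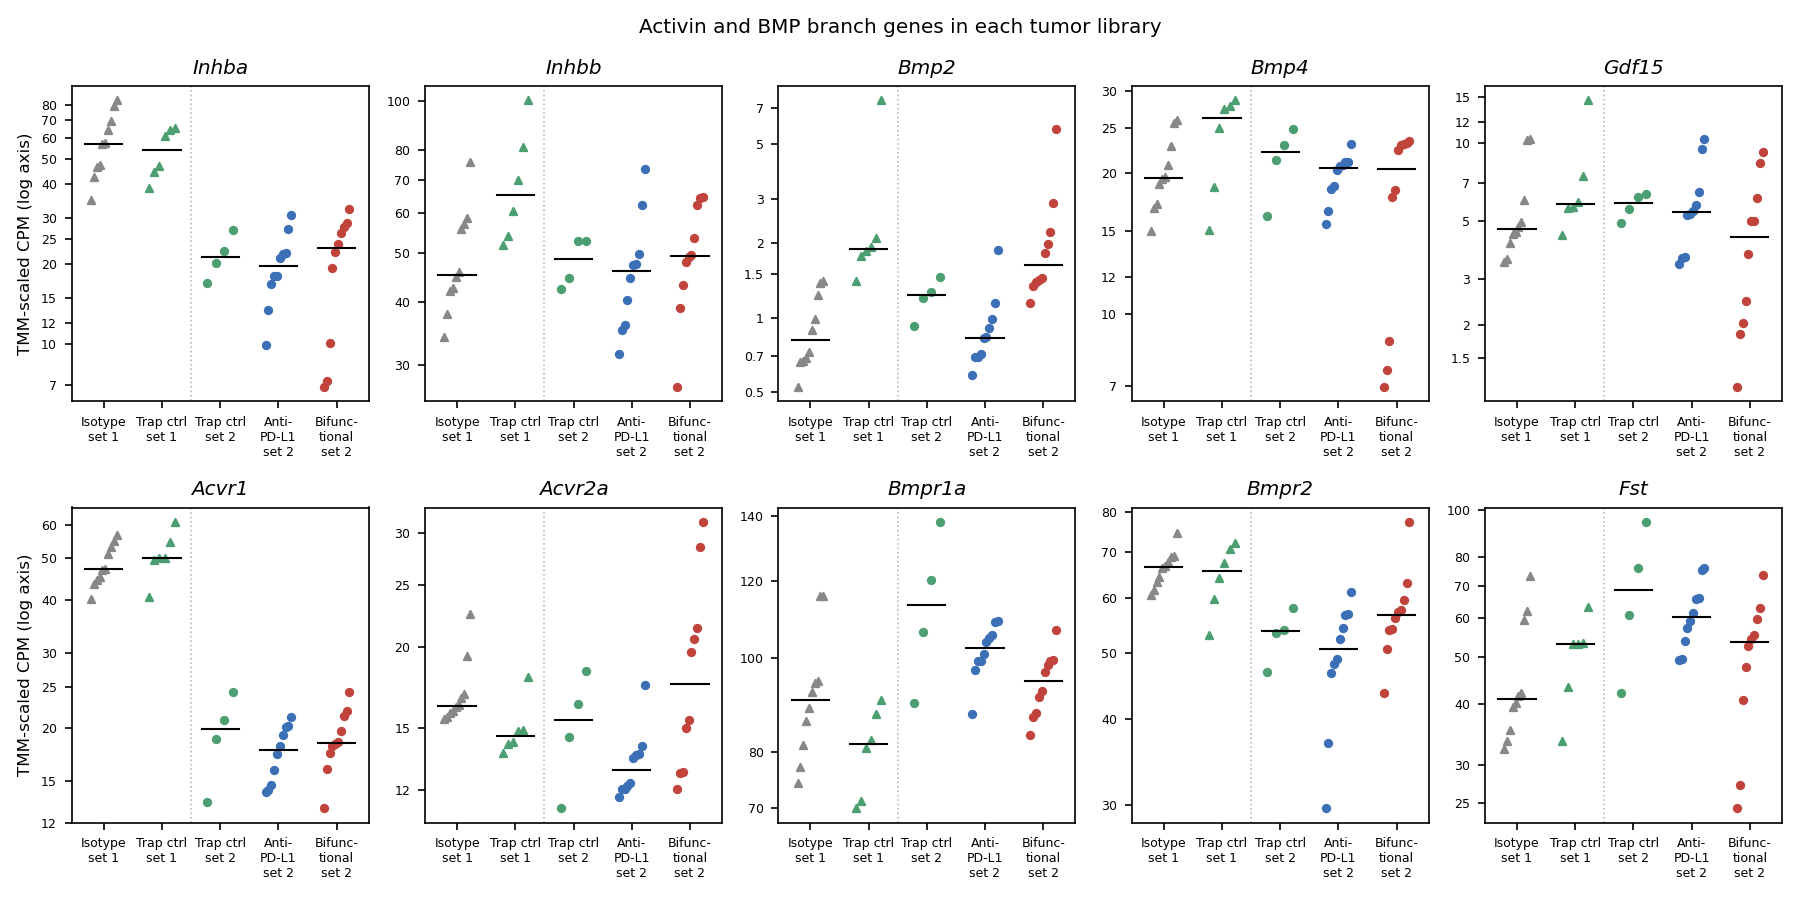
Each panel plots 1 gene, with TMM-scaled CPM on a log axis for all 40 libraries; points are sorted by value within a group, triangles are set 1, circles are set 2, and the black bar is the group median. Bmp2 lies higher in both groups given the trap than in the group without it of the same set, Acvr2a spreads upward in the bifunctional tumors, and Inhba, Bmp4 and Fst have low points in that group.

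The first comparison asked what the trap adds to blockade of PD-L1, from the 10 bifunctional and the 10 anti-PD-L1 tumors of set 2. Bmp2 and Acvr2a rose, and the other 8 genes did not pass the test. In this comparison 25.6% of the 16174 genes tested were called. Of all genes tested 15.9% were called higher and 9.74% lower, so that 2 of 10 called is near that background. The 4146 genes called became 1938 without C0479 and 277 without C0479 and C0484. The median log2 fold change of the 10 genes was 0.07, beside 0.05 over all genes tested. Fold changes, their SE and adjusted p here and below are from edgeR's quasi-likelihood test with Benjamini-Hochberg adjustment over all genes.

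Bmp2 encodes a BMP that acts through BMPR1A and BMPR2. In the anti-PD-L1 tumors it ran from 0.586 to 1.88 CPM with a median of 0.829, and in the bifunctional tumors from 1.14 to 5.76 CPM with a median of 1.63. All 10 bifunctional tumors lay above the anti-PD-L1 median and 4 above its highest tumor, C0478, so the groups overlapped in part. The log2 fold change was 1.20 (SE 0.284, adjusted p 0.00561), or 2.30-fold. The highest values belonged to C0479 at 5.76 CPM and C0484 at 2.89 CPM, the libraries rich in skin, muscle and fat genes. Without these 2 libraries the log2 fold change was 0.78 with an adjusted p of 0.0723, and with the muscle, skin and fat sums as covariates it was 0.83 with an adjusted p of 0.0562. Without C0479 alone it was 0.91 and the call held (adjusted p 0.0234).

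Acvr2a encodes a type II receptor of activins and of some BMPs. The anti-PD-L1 tumors ran from 11.7 to 17.5 CPM with a median of 12.9, and the bifunctional tumors from 12.0 to 31.3 CPM with a median of 17.5. Of the bifunctional tumors 7 of 10 lay above the anti-PD-L1 median and 5 above its highest, while the other 5 lay within the range of the anti-PD-L1 tumors. The log2 fold change was 0.52 (SE 0.131, adjusted p 0.00699), or 1.43-fold. C0479 at 31.3 and C0484 at 28.6 CPM were again the highest. Without both the log2 fold change was 0.29 (adjusted p 0.103), and with the 3 tissue sums as covariates 0.24 (adjusted p 0.113). The gene Orc4 on the opposite strand overlaps the end of Acvr2a, and the strand used in counting is not given in the sources used here, so reads of the overlap cannot be told apart. Orc4 had a median of 35.9 CPM in the anti-PD-L1 and 31.0 CPM in the bifunctional tumors.

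Among the other receptor genes, the BMP type II receptor gene Bmpr2 ran from 29.7 to 61.3 CPM with a median of 50.6 in the anti-PD-L1 tumors, and from 43.7 to 77.5 CPM with a median of 56.7 in the bifunctional tumors. Its log2 fold change of 0.22 (SE 0.0916, adjusted p 0.0669) lay just outside the threshold, with 8 of 10 bifunctional tumors above the anti-PD-L1 median. It passed in 4 of the fits that left out 1 library, with adjusted p of 0.0353 without C0476, 0.0453 without C0478, 0.0462 without C0482 and 0.0319 without C0483. Bmpr1a, a BMP type I receptor gene, had medians of 102.4 and 94.7 CPM, with ranges of 87.7 to 109.2 and 83.2 to 107.0 CPM. Although 9 of 10 bifunctional tumors lay at or below the anti-PD-L1 median, the log2 fold change was −0.11 with an interval of −0.25 to 0.04 (95%). Acvr1, a type I receptor gene shared by activin and BMP complexes, had medians of 17.8 and 18.5 CPM and a log2 fold change of 0.10 with an interval of −0.09 to 0.30.

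The ligand genes other than Bmp2 did not pass, and for each of these 4 the lowest bifunctional tumor lay below the lowest anti-PD-L1 tumor. Inhba ran from 9.93 to 30.6 CPM with a median of 19.6 in the anti-PD-L1 tumors and from 6.91 to 32.3 CPM with a median of 23.1 in the bifunctional tumors. The log2 fold change was 0.04, with an interval of −0.40 to 0.47, and 3 bifunctional tumors (C0483 at 6.91, C0484 at 7.25 and C0486 at 10.1 CPM) held the low end while the next lay at 19.3 CPM. Bmp4, a BMP ligand gene of mesenchyme, ran from 15.6 to 23.1 CPM with a median of 20.5, and from 6.97 to 23.5 CPM with a median of 20.4. Its 3 low bifunctional tumors were C0483 at 6.97, C0484 at 7.57 and C0479 at 8.75 CPM, and the fourth lowest reached 17.7 CPM. The median tumor was thus at the same level in both groups, and the log2 fold change of −0.17 had an interval of −0.51 to 0.17.

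Gdf15 ran from 3.42 to 10.3 CPM with a median of 5.41 in the anti-PD-L1 tumors, and from 1.16 to 9.23 CPM with a median of 4.37 in the bifunctional tumors. The log2 fold change was −0.39 (SE 0.288) with an interval of −0.95 to 0.18. Inhbb ran from 31.6 to 73.3 CPM and from 27.2 to 64.7 CPM, with medians of 46.1 and 49.4 CPM and an interval of −0.20 to 0.39. The antagonist gene Fst ran from 49.3 to 76.1 CPM with a median of 60.3, and from 24.4 to 73.7 CPM with a median of 53.6. Its log2 fold change was −0.30 (SE 0.167, adjusted p 0.178), and 2 of 10 bifunctional tumors lay above the anti-PD-L1 median. C0483 at 24.4 and C0484 at 27.2 CPM were its lowest libraries. In bulk tumors fewer cells of a type and less RNA per cell cannot be told apart.

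**Figure D2:**
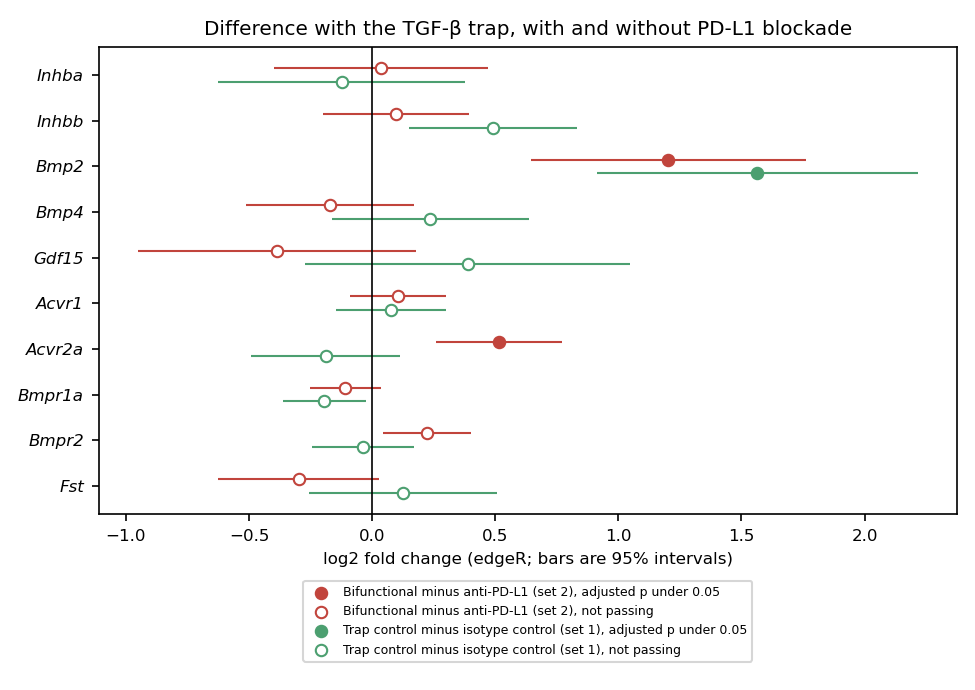
Log2 fold change of each gene (horizontal axis) for bifunctional minus anti-PD-L1 (red) and trap control minus isotype control (green); bars are 95% intervals and filled points have an adjusted p under 0.05. Bmp2 is filled in both comparisons, at 1.20 and 1.56, and Acvr2a in the red one alone, at 0.52.

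The second comparison asked what the trap does without PD-L1 blockade, from the 6 trap control and the 10 isotype tumors of set 1. Of all genes tested 9.74% were called, 4.42% higher and 5.32% lower. Bmp2 was the 1 gene of 10 called, a share near that background. The 1576 genes called became 1033 without the trap control library C0459. The median of the 10 log2 fold changes was 0.10, beside 0.02 over all genes. Bmp2 ran from 0.526 to 1.41 CPM with a median of 0.810 in the isotype tumors, and from 1.40 to 7.53 CPM with a median of 1.89 with the trap. All 6 trap control tumors lay above the isotype median and 5 above its highest tumor, so the groups barely overlapped. The log2 fold change was 1.56 (SE 0.333, adjusted p 0.00341), or 2.96-fold. It was 0.97 without C0464, the tumor at 7.53 CPM, and still passed (adjusted p 0.0387), whereas the tests on TPM did not call it. The median TPM of Bmp2 was 0.04 in the isotype and 0.1 in the trap control tumors, at or below the pseudocounts of 1 and 0.1. Those tests called few of all genes in this comparison, so they are a weak check of the call. The expected counts of Bmp2 in set 1 ran from 7 to 73 per library.

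Of the other ligand genes, Inhbb came closest to the threshold. It ran from 34.1 to 75.7 CPM with a median of 45.4 in the isotype tumors and from 52.0 to 100.4 CPM with a median of 65.3 with the trap. All 6 lay above the isotype median, and the log2 fold change was 0.49 (SE 0.175, adjusted p 0.0654). It passed without the isotype library C0456 (0.58, adjusted p 0.0221), without the trap control library C0463 (0.56, adjusted p 0.0471) and with the tissue sums as covariates (0.57, adjusted p 0.0272). Inhba had medians of 57.0 and 53.8 CPM, Bmp4 of 19.5 and 26.2 CPM and Gdf15 of 4.65 and 5.80 CPM. Their log2 fold changes of −0.12, 0.24 and 0.39 had adjusted p of 0.815, 0.499 and 0.502.

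The receptor and antagonist genes did not pass in set 1. Acvr2a ran from 15.5 to 22.5 CPM with a median of 16.2 in the isotype tumors and from 13.7 to 18.0 CPM with a median of 14.5 in the trap control tumors, of which 1 of 6 lay above the isotype median. Its log2 fold change was −0.19 (SE 0.155, adjusted p 0.475). Bmpr1a had medians of 90.5 and 81.5 CPM and a log2 fold change of −0.19 (adjusted p 0.15). Acvr1, Bmpr2 and Fst had log2 fold changes of 0.08, −0.04 and 0.13, with adjusted p of 0.726 to 0.871.

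The difference between these 2 effects was tested as an interaction, the bifunctional minus anti-PD-L1 difference less the trap control minus isotype difference. Of all genes 7.91% were called, 3.96% higher and 3.95% lower, and Acvr2a was the 1 called among the 10 genes, which is again near the background. Its interaction was 0.71 on the log2 scale (SE 0.203, adjusted p 0.0298), the effect being 0.52 in set 2 and −0.19 in set 1. This call was lost without the trap control library C0460 (0.68, adjusted p 0.0582), without C0479 and C0484 together (0.48, adjusted p 0.0795) and with the tissue covariates (0.46, adjusted p 0.0553). For Bmp2 the interaction was −0.36 with an interval of −1.22 to 0.50 and did not pass (adjusted p 0.627). Because the 2 effects come from different library sets, a difference between the sets and one between the treatments cannot be told apart.

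Within set 2 the bifunctional tumors were also compared with the 4 trap control tumors, a comparison of what the PD-L1 arm adds to the trap. No gene passed among all tested (0%), while 2584 had an unadjusted p under 0.05 and DESeq2 called 139. None of the 10 genes was called by edgeR or DESeq2, and 3 of them had an unadjusted p under 0.05. The trap control tumors held 1.46, 0.92, 1.26 and 1.20 CPM of Bmp2, below the bifunctional median of 1.63 CPM, and the log2 fold change was 0.82 (SE 0.386, adjusted p 0.294). They held 89.9, 138.2, 120.5 and 106.3 CPM of Bmpr1a. None of the 10 bifunctional tumors lay above the trap control median of Bmpr1a, and the log2 fold change was −0.27 (SE 0.0961, adjusted p 0.214). For Fst the 4 values were 42.2, 76.0, 94.7 and 61.0 CPM, a range that held the median of the bifunctional tumors, and the log2 fold change was −0.46 (adjusted p 0.296). For Acvr2a they were 16.3, 11.2, 18.4 and 14.5 CPM, with a log2 fold change of 0.33 (adjusted p 0.342).

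The trap control tumors of set 2 did not differ detectably from the anti-PD-L1 tumors. Over all genes 0.00618% (1 gene) passed in edgeR, 737 had an unadjusted p under 0.05 and DESeq2 called 2. None of the 10 genes was called by either tool or had an unadjusted p under 0.05. Bmp2 differed by 0.38 on the log2 scale (SE 0.371), and its 4 trap control values lay above the anti-PD-L1 median and below its highest tumor. With 4 tumors in 1 group the interval for Bmp2, −0.34 to 1.11, takes in no difference as well as the 0.82 by which the bifunctional tumors exceeded the trap control.

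The isotype tumors can be set against set 2 only through the trap control group, which spans both sets. By that route 2.39% of all genes were called between bifunctional and isotype tumors, 0.909% higher and 1.48% lower. Of the 10 genes Bmp2 was called higher (log2 fold change 2.38, SE 0.519, adjusted p 0.0216) and Bmpr1a lower (−0.46, SE 0.129, adjusted p 0.0465). Neither was called without C0464, C0466 or C0467, the tests on TPM called 0 of the 10, and 1 of the 10 was called by DESeq2, with no filter, with the tissue covariates and without C0479 and C0484. Between anti-PD-L1 and isotype tumors 0.0124% of all genes were called (2 genes in edgeR, 1575 at an unadjusted p under 0.05, 30 in DESeq2). None of the 10 genes was, and Bmp2 (1.18, adjusted p 0.455) and Bmpr1a (−0.36, adjusted p 0.391) held the 2 unadjusted p under 0.05 of the 10. Both contrasts rest on the same 6 and 4 trap control libraries, so they are not independent.

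Levels of Bmp2 and Acvr2a were then read beside markers of the other cells in the tumor. Across the 24 libraries of set 2, as deviations of log2(CPM + 1) from the group mean, Bmp2 varied with the summed level of 8 endothelial markers (r = 0.851, rho = 0.757, adjusted p 0.000424 by permutation over 99 relations). Without the 2 libraries farthest in the marker sum r was 0.687, and without C0479 and C0484 it was 0.698. In the 16 libraries of set 1 the same r was 0.492 (adjusted p 0.46 by permutation), and −0.004 without the 2 farthest, so there it rests on those libraries. Acvr2a followed the endothelial sum in set 2 (r = 0.847, rho = 0.747, adjusted p 0.00033 by permutation, 0.772 without the 2 farthest), and had r = 0.001 in set 1. It also varied in set 2 with the macrophage sum (r = 0.805), the fibroblast sum (r = 0.707) and the adipocyte sum (r = 0.697).

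The endothelial sum had medians of 177.2 CPM in the anti-PD-L1 and 194.8 CPM in the bifunctional tumors, with ranges of 142.1 to 327.0 and 171.0 to 536.6 CPM. Of its 8 genes 2 were called higher in the bifunctional tumors and 1 of 8 in the trap control tumors of set 1, where 15.9% and 4.42% of all genes were called higher, so these counts are near the background. The tumors highest in Bmp2 among the anti-PD-L1, the bifunctional and the set 1 trap control tumors (C0478, C0479 and C0464) had the highest endothelial sum of their group as well, at 327.0, 536.6 and 364 CPM. This did not hold elsewhere. The isotype tumor highest in Bmp2, C0450, had a sum of 160.8 CPM, below its group median of 169.4 CPM. In the set 2 trap control that tumor was C0465 at 238.3 CPM, below C0467 at 285.7 CPM. Macrophage markers were called higher for 7 of 9 genes in the bifunctional tumors, beside the same 15.9%, with sums of 741 to 1926 CPM against 580 to 1079 CPM. No defining marker of these 3 classes (endothelial, macrophage, fibroblast) was at 0 in any group, and their part in the results for Bmp2 and Acvr2a was not tested.

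**Figure D3:**
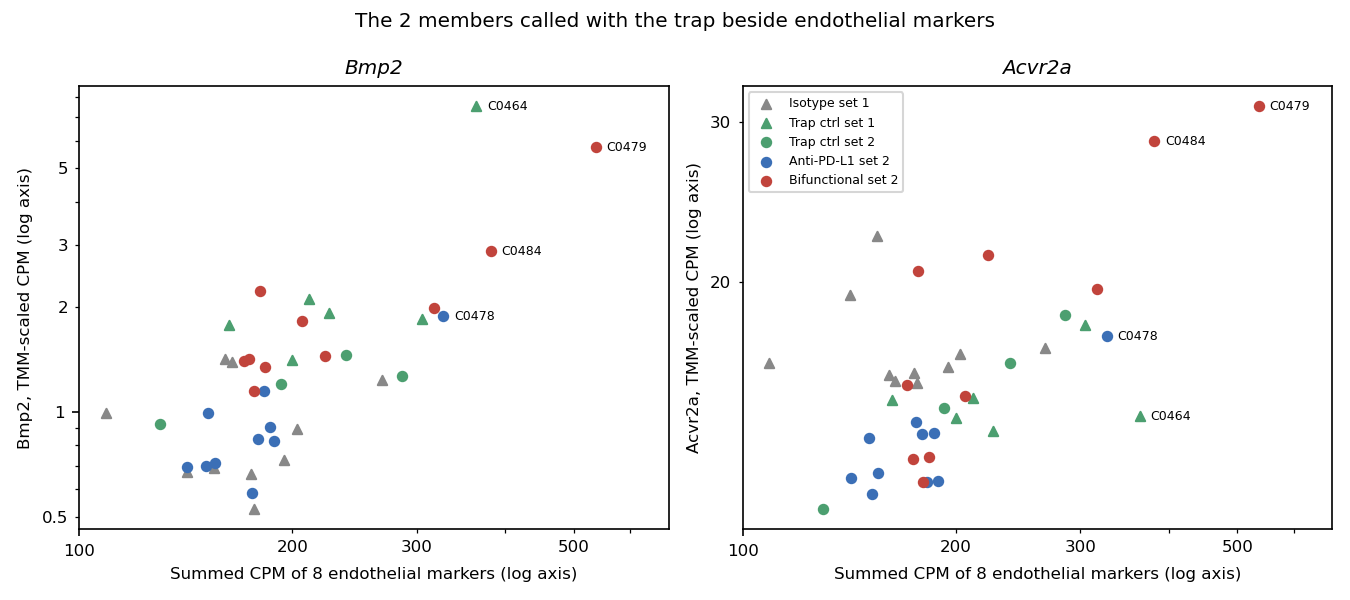
Bmp2 (left) and Acvr2a (right) in TMM-scaled CPM against the summed CPM of 8 endothelial markers, log axes, 1 point per library; triangles are set 1 and circles set 2. C0479 lies at the upper right of both panels, at 536.6 CPM of endothelial markers with 5.76 CPM of Bmp2 and 31.3 CPM of Acvr2a, and C0464 is high in Bmp2 but not in Acvr2a.

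Other members varied with other markers in set 2. Inhba and Acvr1 went against the adipocyte sum (r = −0.631 and −0.624, adjusted p 0.0219 and 0.0197 by permutation). Bmpr1a went against the muscle sum (r = −0.630, adjusted p 0.0116) and Bmpr2 went with the fibroblast sum (r = 0.666, adjusted p 0.00828, both by permutation). Gdf15 went against the macrophage sum (r = −0.699, rho = −0.723, adjusted p 0.0116 by permutation), and without the 2 farthest libraries r was −0.737. In set 1 the r for Gdf15 and macrophage markers was −0.419 (adjusted p 0.508 by permutation).

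Gdf15 was compared with 9 stress response genes, most of them known targets or parts of the ATF4 branch of the integrated stress response and the others targets of p53. This pathway raises a set of transcripts when translation is slowed by stress or by lack of amino acids. Of the 9 genes none was called between bifunctional and anti-PD-L1 tumors (2 at an unadjusted p under 0.05, 0 in DESeq2) and none between trap control and isotype tumors (1 at an unadjusted p under 0.05, 0 in DESeq2). Their median log2 fold changes were −0.15 and 0.12. Over all genes 25.6% and 9.74% were called in these comparisons. From tumor to tumor, 7 of the 9 varied with Gdf15 in set 2, beyond the group means. The share of all genes that vary with Gdf15 in this way was not tested. Sesn2, a stress-induced regulator of growth signalling, had the highest r, 0.902 (rho = 0.898, adjusted p 0.00033 by permutation). Chac1, which degrades glutathione, had r = 0.883, Ddit3, the transcription factor CHOP, 0.863, Trib3, a pseudokinase, 0.851, Atf4 itself 0.822 and Asns, asparagine synthetase, 0.805. The p53 target Mdm2 was lower at r = 0.56 (adjusted p 0.0263 by permutation), and Atf3 (r = 0.423) and the p53 target Cdkn1a (r = 0.364) did not pass.

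In set 1, 3 of these relations passed as well: Trib3 at r = 0.912 (adjusted p 0.00792 by permutation), Chac1 at 0.836 and Asns at 0.802 (adjusted p 0.0426 for both, by permutation). Sesn2 at 0.737, Atf4 at 0.702 and Ddit3 at 0.574 had the same sign and did not pass with 16 libraries. Leaving out the 2 libraries farthest in the stress gene, the 7 relations called in set 2 kept r between 0.487 (Mdm2) and 0.876 (Sesn2).

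**Figure D4:**
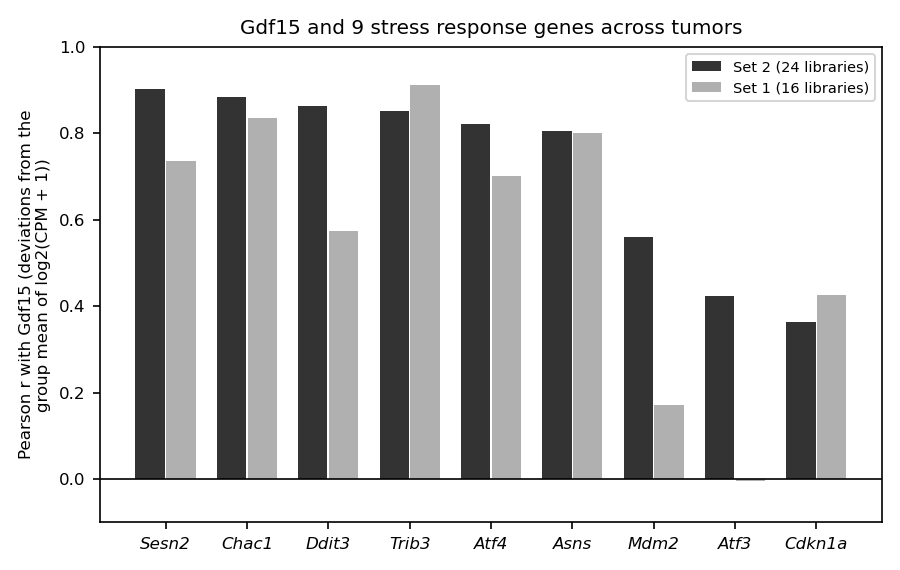
Bars give Pearson r between Gdf15 and each of 9 stress response genes, as deviations of log2(CPM + 1) from the group mean, for the 24 libraries of set 2 (dark) and the 16 of set 1 (light). Sesn2, Chac1, Ddit3, Trib3, Atf4 and Asns have r of at least 0.805 in set 2, and Trib3 reaches 0.912 in set 1.

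Since Gdf15 varied with these genes, its promoter is shown beside those of 3 genes that varied with it. Each sequence below runs from 250 bases before to 50 bases after a transcription start in RefSeq (GRCm38.p6), 5′ to 3′ on the strand of the gene, and capitals mark the letters TGATGNAA, or their reverse complement, a core of sites bound by ATF4 dimers with C/EBP factors. They lie at chr8:70632407-70632706 (minus strand) for Gdf15, chr2:119350992-119351291 (plus strand) for Chac1, chr6:7693160-7693459 (minus strand) for Asns and chr3:50443564-50443863 (minus strand) for Slc7a11, the cystine transporter gene, which is among the 3 genes most like Gdf15 named further on.
Gdf15: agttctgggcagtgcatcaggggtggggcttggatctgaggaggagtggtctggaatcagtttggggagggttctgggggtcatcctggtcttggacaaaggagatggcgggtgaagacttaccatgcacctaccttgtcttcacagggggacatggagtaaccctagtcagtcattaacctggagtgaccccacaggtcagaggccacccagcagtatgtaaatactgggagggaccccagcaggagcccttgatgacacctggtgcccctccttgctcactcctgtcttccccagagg
Chac1: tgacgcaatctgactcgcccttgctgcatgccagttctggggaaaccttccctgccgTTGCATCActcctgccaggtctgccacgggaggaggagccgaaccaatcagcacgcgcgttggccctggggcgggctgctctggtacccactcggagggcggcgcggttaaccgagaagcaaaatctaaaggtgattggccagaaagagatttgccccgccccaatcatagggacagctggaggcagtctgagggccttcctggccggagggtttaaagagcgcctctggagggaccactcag
Asns: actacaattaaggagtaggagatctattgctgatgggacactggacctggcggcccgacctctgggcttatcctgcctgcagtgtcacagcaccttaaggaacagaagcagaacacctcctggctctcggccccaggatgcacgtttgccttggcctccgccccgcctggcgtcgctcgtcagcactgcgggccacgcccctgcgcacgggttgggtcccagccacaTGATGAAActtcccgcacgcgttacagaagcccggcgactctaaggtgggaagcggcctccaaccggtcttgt
Slc7a11: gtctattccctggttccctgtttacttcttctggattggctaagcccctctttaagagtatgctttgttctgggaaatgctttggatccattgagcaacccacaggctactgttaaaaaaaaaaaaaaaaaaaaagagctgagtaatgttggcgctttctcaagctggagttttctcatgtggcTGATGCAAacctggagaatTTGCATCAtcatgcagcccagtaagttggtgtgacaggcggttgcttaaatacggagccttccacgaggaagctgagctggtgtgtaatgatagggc
The letters occurred on either strand in 1304 of 32851 promoter windows of this length (3.97%). They occurred 1 time each in the windows of Chac1, Asns, Atf3 and Trib3 and 2 times in that of Slc7a11. The windows of Gdf15 (2 starts), Sesn2, Atf4, Ddit3, Mdm2 and Cdkn1a did not hold them, nor did those of the other 7 of the 10 genes present in the table. Bmp2 and Fst were not matched there. A match of letters describes the sequence only.

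The 10 genes were also compared with each other, over 45 pairs. In set 2, 8 pairs passed by Pearson r and 2 of them also by Spearman rho, while in set 1 no pair passed by either permutation test. Bmp4 and Fst varied together most closely (r = 0.778, rho = 0.697, adjusted p 0.00855 for r and 0.0362 for rho, by permutation). Their r was 0.567 without the 2 farthest libraries and 0.344 in set 1. Bmp4 and its receptor gene Bmpr1a had r = 0.569 and rho = 0.614 with the same adjusted p by permutation, 0.581 without the 2 farthest libraries, and 0.0235 in set 1. Inhba varied with Acvr1 (r = 0.572), Fst (r = 0.604) and Bmpr2 (r = 0.544), and Acvr1 with Bmpr2 (r = 0.563) and Bmp4 (r = 0.527). For each pair the 2 farthest libraries were those farthest from the median in the first gene as named with that r. For Inhba and Fst r was 0.273 without them and 0.525 without C0479 and C0484, so that relation depends on which libraries are left out. Without the 2 farthest libraries r was 0.319 for Bmp4 and Acvr1 and 0.407 for Inhba and Acvr1. It was 0.473 for Acvr1 and Bmpr2 and 0.555 for Inhba and Bmpr2. In set 1 r was 0.036 for Inhba and Bmpr2 and 0.244 for Acvr1 and Bmpr2. There it was 0.385 for Inhba and Acvr1, 0.503 for Inhba and Fst and 0.564 for Bmp4 and Acvr1.

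Bmp2 and Acvr2a, the members that rose in the bifunctional tumors, varied together in set 2 (r = 0.630, adjusted p 0.0393 by permutation), with r = 0.337 without the 2 farthest libraries, 0.183 without C0479 and C0484, and −0.21 in set 1. It was the 1 pair of the 8 whose sign differed between the sets. The low tumors of the bifunctional group repeat in several genes: C0483 and C0484 were the lowest 2 libraries of their group for Inhba, Inhbb, Bmp4 and Fst, and C0484 was second lowest for Gdf15.

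**Figure D5:**
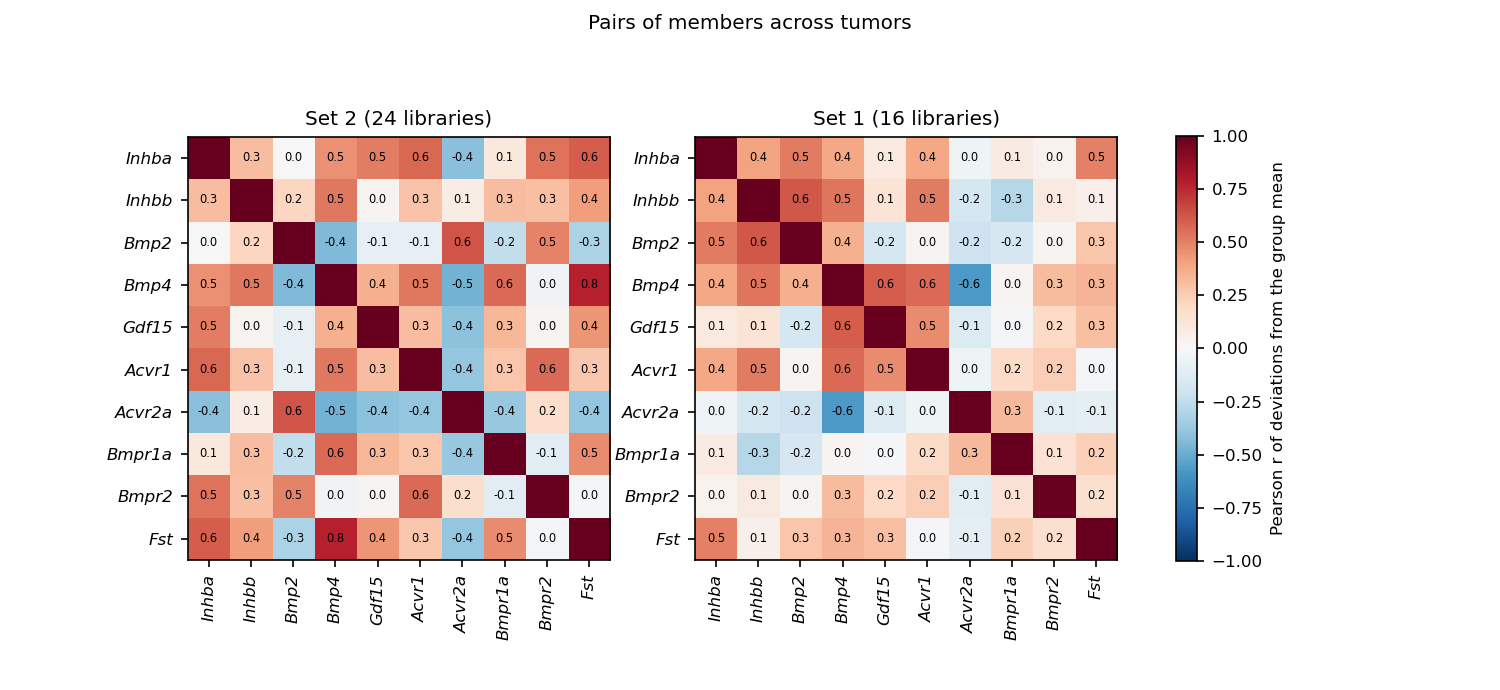
Pearson r of each pair of the 10 genes, as deviations of log2(CPM + 1) from the group mean, in set 2 (left, 24 libraries) and set 1 (right, 16 libraries); red is positive, blue negative. Bmp4 with Fst is the deepest off-diagonal cell in set 2, at 0.778, and Bmp2 with Acvr2a changes from 0.630 to −0.21 between the sets.

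For each of the 10 genes the 3 protein-coding genes with the highest r in set 2 were drawn from 12268 genes, as a description with no test, over 24 libraries, with r in the 16 libraries of set 1 in brackets. Inhba was most like Sipa1l1 at 0.88 (0.36), Myo1d at 0.85 (0.61) and Prdm1 at 0.84 (0.65). Inhbb was most like Stc1 at 0.81 (0.53), Flt1 at 0.75 (0.67) and Fam171a2 at 0.73 (0.12). Bmp2 was most like Btbd3 at 0.91 (0.21), Neurl1b at 0.91 (0.17) and Sox7, an endothelial transcription factor gene, at 0.89 (0.68). Of these 9 genes Sox7, Flt1, Prdm1 and Myo1d kept r above 0.6 in set 1. Bmp4 was most like Rnd3 at 0.91 (0.52), Grb14 at 0.89 (0.71) and Prrx2 at 0.885 (0.69), and Gdf15 was most like Sesn2 at 0.90 (0.74), Chac1 at 0.88 (0.84) and Slc7a11 at 0.88 (0.77). Fst was most like the hyaluronan synthase gene Has2 at 0.92 (0.63), Ass1 at 0.88 (0.46) and Axin2 at 0.84 (0.72). These partners held positive r in both sets.

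Among the receptor genes the partners differed more between sets. Acvr1 was most like Kmt2e at 0.85 (0.38), Cobll1 at 0.85 (0.65) and Rc3h2 at 0.84 (0.46). Acvr2a was most like Gria3 at 0.97 (0.18), Armcx3 at 0.95 (0.22) and Evc2 at 0.95 (0.13), and Bmpr1a most like Pdk3 at 0.84 (−0.12), Ints6 at 0.83 (0.58) and Sugt1 at 0.82 (0.21). Bmpr2 was most like Crebbp at 0.93 (−0.10), Pcnx at 0.91 (0.09) and Utrn at 0.90 (−0.37).

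The rest of the pathway was read from lists of other ligands, receptors, antagonists, SMADs and target genes. Between bifunctional and anti-PD-L1 tumors, against 25.6% called over all genes, 3 of 10 tested other ligand genes rose and 1 fell, with a median log2 fold change of 0.98. Gdf10, a relative of the BMPs, rose from 0.646 ± 0.361 to 2.42 ± 2.01 CPM (SD, n = 10 each; log2 fold change 1.90, SE 0.546, adjusted p 0.0131). Bmp7 rose by 1.72 (adjusted p 0.0377), a call lost in 9 of the 20 fits without 1 library, with 0.65 (adjusted p 0.409) without C0479. Mstn, the muscle ligand myostatin, averaged 0.393 CPM against 0.00635 CPM, with 4 of 10 bifunctional tumors above the anti-PD-L1 median. Mstn gave a value in 18 of the 20 fits without 1 library and none without C0479 and C0484. Its rise thus rests on few tumors. Gdf11, a relative of myostatin that also binds activin receptors, fell by 0.28 (adjusted p 0.0169), and none of the 10 bifunctional tumors lay above the anti-PD-L1 median.

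Of 12 tested other receptor and co-receptor genes 6 rose and none fell, beside 15.9% of all genes called higher, with a median of 0.36. Without C0479 and C0484 no gene of this list was called in edgeR. Tgfbr3, the co-receptor betaglycan, which binds TGF-β and inhibin, rose from a mean of 44.6 to 69.0 CPM (log2 fold change 0.63, SE 0.164, adjusted p 0.00796). Acvrl1, the endothelial BMP receptor ALK1, rose by 0.60 (adjusted p 0.013), and Acvr1b, the activin type I receptor ALK4, by 0.36 (adjusted p 0.0146). The calls of Acvrl1 (0.43, adjusted p 0.055) and Acvr1b (0.24, adjusted p 0.0544) were lost without C0479. Hjv, a BMP co-receptor of liver and muscle, averaged 1.27 ± 2.62 CPM (SD, n = 10) against 0.0569 CPM, and its call was lost without C0484, rich in muscle genes (adjusted p 0.0748).

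Of 11 tested antagonist genes 3 rose and 1 fell. Chrdl1, which binds BMPs, rose by 1.50 (SE 0.430, adjusted p 0.0126), Bmper, a BMP-binding protein of vessels, by 1.22 (adjusted p 0.028) and Chrd, chordin, by 0.42 (adjusted p 0.038). Fstl3, a relative of follistatin, fell by 0.28 (adjusted p 0.046). Of the 20 fits without 1 library, 18 lost the call of Fstl3, 10 that of Chrd, 4 that of Bmper (0.85, adjusted p 0.12 without C0484) and 0 that of Chrdl1. Of 10 SMAD and SMAD ubiquitin ligase genes none was called in edgeR or DESeq2, and 1 had an unadjusted p under 0.05. Beside 15.9% of all genes called higher, 2 of 8 tested BMP target genes rose, Atoh8 by 0.77 (adjusted p 0.0178) and Id4 by 1.58 (adjusted p 0.0277). Without C0484 neither was called (adjusted p 0.052 and 0.0783), and 4 of the 20 fits without 1 library lost Id4. The classical targets had log2 fold changes of 0.32 for Id1 (adjusted p 0.242) and −0.16 for Id3 (adjusted p 0.383). Of the 5 TGF-β ligand and receptor genes Tgfb1 rose by 0.40 (adjusted p 0.0221), which became 0.32 (adjusted p 0.0734) without C0479. Without C0479 and C0484, and with the tissue covariates, no gene of these lists was called in edgeR.

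In set 1, against 9.74% called over all genes, few genes of the same lists were called with the trap control. A gene not called is not thereby shown to be unchanged. None of 10 tested other ligands (1 at an unadjusted p under 0.05, 0 in DESeq2) and none of 11 antagonists (2 and 0) was called. Among 12 receptors and co-receptors Hjv was called, at 1.59 ± 3.89 CPM (SD, n = 6) against 0.0376 CPM, with 1 of 6 trap control tumors above the isotype median. That library was C0463, the tumor rich in muscle genes, and without it the call was lost (adjusted p 0.687). The SMAD ubiquitin ligase gene Smurf2 fell by 0.28 (adjusted p 0.0326), with none of 6 trap control tumors above the isotype median. The BMP target Id3 rose by 0.51 (SE 0.160, adjusted p 0.0354), from 28.0 ± 6.39 CPM (SD, n = 10) to 39.9 ± 8.29 CPM (SD, n = 6), and all 6 lay above the isotype median. Both calls were fragile: 5 of the 16 fits without 1 library lost Smurf2 and 6 lost Id3. None of the 5 TGF-β ligand and receptor genes was called in edgeR (2 at an unadjusted p under 0.05, 1 in DESeq2), with Tgfbr1 at −0.47 (adjusted p 0.06).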

How the data were processed

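RNA from 40 tumors was measured by sequencing after ribosomal depletion and random priming, per the labels' protocols. RSEM 1.2.31 and Bowtie2 2.3.1 with the genome build mm10 were used in steps and an order not stated, per the submitters' processing notes. The annotation release, the strand of counting and trimming are not given in the sources used here. The authors deposited expected counts, which share reads that map to several genes (14.0% were not whole and were rounded), and TPM values, scaled by the authors for transcript length and library total and written to 2 decimals. Both tables hold 39012 genes, of which 37688 (96.6%) matched a GENCODE M21 symbol. Gdf1 was not matched, and Hjv was matched by its older symbol Hfe2.

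Counts were scaled by TMM and tested in edgeR 4.0.16 (R 4.3.3, limma 3.58.1) with filterByExpr and the quasi-likelihood F test, two-sided. All 40 libraries entered 1 fit with 5 means, 1 for each group and library set. It kept 16174 genes, and p-values were adjusted by Benjamini-Hochberg at a threshold of 0.05. Intervals are 95%. Each library is 1 tumor, and no pair of a group agreed within sampling noise (smallest chi-square per degree of freedom 9.60). Precision follows the count: totals were 13495835 to 27658263. Correlations used deviations of log2(CPM + 1) from the group mean within a set, with 100000 permutations within groups, two-sided, for which the smallest p is 1e-05 (Python 3.11.15, scipy 1.17.1). Alternatives were DESeq2 1.42.0, other filters, TPM with pseudocounts of 1 and 0.1 in limma, tissue marker sums as covariates, no set term, fits of the compared groups only, C0479 and C0484 left out together, and each library left out in turn. Correlations without C0479 and C0484 were added after seeing the data. The fit was tested on simulated data with 200 changed genes. Those data held no libraries set apart like C0479 and C0484, so they cannot show how far calls rest on such libraries.

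The 10 genes, the pathway lists and the marker lists were chosen with earlier results of these data known. Named besides the 10 are up to 4 genes of each pathway list with the smallest adjusted p in either trap comparison, the stress genes beside Gdf15, and for each of the 10 the 3 protein-coding genes with a mean of at least 1 CPM and the highest r in set 2. Id1, Acvr2a's neighbor Orc4 and the genes of the promoter search were chosen after their values were seen.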

Additional observations from a re-analysis of the deposited data

Results flagged for a closer look

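A library was set aside for a look by Dixon's test on log2(CPM + 1). Its gap to the nearest of its group, as a share of the group's range, had to pass the 95% critical value. Of 50 groups tested, 10 genes in 5 groups of libraries, 6 passed, where chance gives about 1 in 20. Bmp2 accounted for 3: the trap control tumor C0464 of set 1 at 7.53 CPM (the next at 2.11), the anti-PD-L1 tumor C0478 at 1.88 CPM (the next at 1.14) and the bifunctional tumor C0479 at 5.76 CPM (the next at 2.89). Acvr2a accounted for 2: the trap control tumor C0463 of set 1 at 18.0 CPM (the next at 14.9) and the anti-PD-L1 tumor C0478 at 17.5 CPM (the next at 14.0). The lowest anti-PD-L1 value of Bmpr1a, 87.7 CPM in C0475 (the next at 97.3), was the sixth.

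The effect of the trap differed between the arm with and the arm without PD-L1 blockade for 4 of the 38 genes tested among the 10 and the named genes of the pathway lists, by the interaction in edgeR, beside 7.91% of all genes. The pathway genes had been named for small adjusted p in the comparisons that make up the interaction, so these 4 are a description. Beside Acvr2a at 0.71 (adjusted p 0.0298), these were Id3 at −0.68 (adjusted p 0.0425), which rose with the trap control and not with the bifunctional agent, Chrdl1 at 2.40 (adjusted p 0.0448) and Tgfbr1 at 0.65 (adjusted p 0.0491). Of the 36 fits without 1 library, 1 lost the call of Acvr2a, 16 that of Id3, 19 that of Chrdl1 and 22 that of Tgfbr1. The arms lie in different library sets, so that set and arm cannot be told apart.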

How the results depend on the processing

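The call of Bmp2 in both trap comparisons held with each library left out, with log2 fold changes of 0.91 to 1.38 and 0.97 to 1.69. Without 1 library the counts of the 10 genes called were 2 to 3 for bifunctional against anti-PD-L1, 1 to 2 for trap control against isotype, 0 to 0 for bifunctional and for anti-PD-L1 against the trap control of set 2, 0 to 1 for the interaction, 0 to 0 for anti-PD-L1 against isotype and 0 to 2 for bifunctional against isotype (0 without C0464, C0466 or C0467). No paired analysis was possible because the library numbers of the labels are not shared between groups.

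With the tissue covariates, and without C0479 and C0484, the 10 genes gave 0 calls for bifunctional against anti-PD-L1, 0 for the interaction and 1 for bifunctional against isotype; the covariates gave 2 for trap control against isotype. TPM with either pseudocount gave 0 for trap control against isotype (Bmp2 at 0.11 and 0.59), 0 for the interaction and 0 for bifunctional against isotype. No filter gave 0 for the interaction and 1 for bifunctional against isotype, where DESeq2 also gave 1. With the sets ignored, the calls were 3 for bifunctional against trap control, 5 for trap control against anti-PD-L1, 2 for the interaction, 5 for anti-PD-L1 and 4 for bifunctional against isotype. Of the 8 pairs called in set 2, 0 were called in set 1, where Bmp2 with Acvr2a had r = −0.21. Over all genes, the 4146 calls for bifunctional against anti-PD-L1 became 1938 without C0479, 2432 without C0484, 277 without both, 631 with the covariates and 1970 with the sets ignored. The 1576 for trap control against isotype became 1033 without C0459, 1041 with the compared groups alone, 7 and 3 on TPM with pseudocounts of 1 and 0.1, and 4213 with the sets ignored.

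Signs changed only among differences that had not passed, except Bmp7 and Hjv. With the sets ignored they became: Bmp2 interaction 0.0375; Inhbb, Bmpr1a and Bmpr2 in bifunctional against trap control −0.29, 0.0048 and −0.0664; Acvr1, Bmpr1a and Chrdl1 in trap control against isotype −0.34, 0.021 and 0.54; Gdf15, Bmpr1a and Fst in trap control against anti-PD-L1 0.20, −0.11 and −0.0878; Bmpr1a interaction −0.13. On TPM with pseudocounts of 1 and 0.1, the Bmp2 interaction was 0.10 and 0.25, Gdf15 in trap control against anti-PD-L1 0.0667 and 0.12, Acvr1 in bifunctional against trap control 0.17 and 0.21, and Bmpr1a and Id3 in bifunctional against anti-PD-L1 0.16 and 0.17, and 0.0811 and 0.0837. With the covariates, Bmp4 and Bmp7 in bifunctional against anti-PD-L1 were 0.0451 and −0.14, Gdf15 in trap control against anti-PD-L1 0.19, Acvr1 in bifunctional against trap control 0.0091 and Hjv in trap control against isotype −2.69. Without C0479 and C0484, Inhba and Acvr1 in bifunctional against trap control were 0.0104 and 0.0037, and Bmp4 in bifunctional against anti-PD-L1 0.0086. Leaving out 1 library gave −0.0593 to 0.14 for Inhba with bifunctional against anti-PD-L1 and −0.66 to 0.23 for the Bmp2 interaction; against the trap control of set 2 the bifunctional tumors gave −0.19 to 0.0338 for Inhba, −0.0031 to 0.13 for Inhbb and −0.18 to 0.0912 for Acvr1. The trap control minus anti-PD-L1 gave −0.0104 to 0.13 for Inhbb, −0.10 to 0.10 for Gdf15 and −0.0393 to 0.33 for Fst; the trap control minus isotype gave −0.0828 to 0.0127 for Bmpr2 and −2.90 to 7.07 for Hjv; the Acvr1 interaction was −0.0305 to 0.0851. The causes were not tested. Mstn and Hjv gave no value under the stricter filter or with the compared groups alone, and Mstn none without C0479 and C0484. Depth limits Bmp2 most, at 7 to 179 counts per library.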

Other observations

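In the 16 libraries of set 1 the level of Bmpr2 varied against the share of counts taken by structural RNA, beyond the group means (r = −0.808, adjusted p 0.0198 by permutation over 99 relations).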
